A study of Mus musculus with 42 samples.

Results

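Basal tibialis anterior (TA) muscle of Sesn1SkM-Tg mice was compared directly with basal TA muscle of Sesn2SkM-Tg mice, and the members are the 8 libraries that the sample labels give as basal muscle of these lines (4 of each), out of 42 libraries in the series. TA is a fast muscle at the front of the lower leg, and basal means that no atrophy procedure was applied. All animals were males of 4 months, labelled C57BL/6J. Sesn1SkM-Tg mice carry the human Sesn1 cDNA behind the promoter of muscle creatine kinase (MCK, the gene Ckm), made by injection of the construct into C57BL/6J eggs. Sesn2SkM-Tg mice carry Sesn2, described as human, behind a Tet-regulated promoter and were crossed with mice that express the tetracycline transactivator (tTA) from the MCK promoter, so that this line holds a pair of transgenes. Both lines thus target the myofiber, and the construct, the tTA, the insertion site and the strain history of a line cannot be told apart from the sestrin it expresses. The same set of libraries holds 4 basal non-transgenic littermates (WT), given beside the results though the labels do not say from which line they come, and immobilized muscle of the same genotypes (3 Sesn1SkM-Tg, 4 Sesn2SkM-Tg and 3 WT libraries), taken after 3 days with the hindlimb held by a rigid splint.

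Sestrins are stress-inducible proteins that restrain mTORC1, the kinase complex that drives growth when amino acids are available, by binding GATOR2, which otherwise inhibits GATOR1. GATOR1 switches off the Rag GTPases that bring mTORC1 to the lysosome. Sesn2 is known as a leucine sensor, Sesn1 is the family member known to be abundant in skeletal muscle, and sestrins also promote AMPK activity and the NRF2 antioxidant response. The MCK promoter drives the Sesn1 transgene in one line and the tTA in the other, so it is the regulatory sequence the lines have in common. The mouse Ckm promoter of RefSeq (GRCm38.p6, chr7:19410844-19411143, plus strand, 250 bases before to 50 after the start) is shown 5′ to 3′ with its match to TATATAA, the core of a TATA box, in capitals.
Ckm: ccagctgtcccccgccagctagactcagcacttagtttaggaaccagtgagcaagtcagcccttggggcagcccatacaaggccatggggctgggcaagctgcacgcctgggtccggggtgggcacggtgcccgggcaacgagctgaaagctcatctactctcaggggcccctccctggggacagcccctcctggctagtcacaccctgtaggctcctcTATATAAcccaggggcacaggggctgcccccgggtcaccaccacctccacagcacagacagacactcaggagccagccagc
The match begins at base 220 of the window, and 3.24% of the 32851 RefSeq promoters of the same length hold this string on either strand, which is a description of the letters and not of the fragment in the constructs. Ckm itself, the endogenous gene behind this promoter, measured 18168, 18140.0, 19806 and 20704 in the Sesn1SkM-Tg libraries. It measured 20634, 29535, 20293 and 18602 in the Sesn2SkM-Tg libraries, and the ranges overlapped (log2 fold change -0.19, adjusted p = 0.74).

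Values are the authors' normalized counts per gene on a linear scale near CPM and come without read numbers, so sequencing depth is unknown and counting error cannot be given. Library sums ranged from 1007830 to 1062530 in Sesn1SkM-Tg and from 1068495 to 1276769 in Sesn2SkM-Tg, without overlap (exact two-sided permutation test, p = 0.029, the smallest that 70 splits allow). Sesn2SkM-Tg replicate 2 stood apart: it had the largest sum, correlated with the other basal libraries at 0.941 to 0.972 (0.961 to 0.991 among the others), and its short genes (under 1500 bases of exon) lay above its long genes (over 6000) by 0.776 on the log2 scale, against -0.512 to 0.301 in the other basal libraries. The tissue label held, since the fast myofiber genes were among the highest in both lines: Acta1, the skeletal actin, averaged 21208 and 23628, and Myh4, the fast IIb myosin, 42553 and 47834 in Sesn1SkM-Tg and Sesn2SkM-Tg. The slow myosin Myh7 averaged 2.01 and 3.197.

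In the comparison between the lines, 246 of 13705 genes tested differed (1.79%), 139 of them higher in Sesn1SkM-Tg (1.01%) and 107 lower (0.781%), where called means a limma adjusted p under 0.05 and a log2 fold change of 0.25 or more in size. A positive log2 fold change, always of value + 1, means higher in Sesn1SkM-Tg, and it understates the change of low genes. Among the 246 genes, 112 changed by 1 or more on the log2 scale, and the sizes ran from 0.40 to 2.74 with a median of 0.94. When each of the 8 libraries was left out in turn, 100 genes (57 higher, 43 lower) were called every time, so that none of these calls rests on 1 library. With all libraries scaled to equal sums, 264 genes were called and 199 of them (75.4%) were higher in Sesn1SkM-Tg, against 56.5% before, so the balance of directions depends on that scaling. Without Sesn2SkM-Tg replicate 2 the count was 128, and without Sesn1SkM-Tg replicate 1 it was 132.

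**Figure D1:**
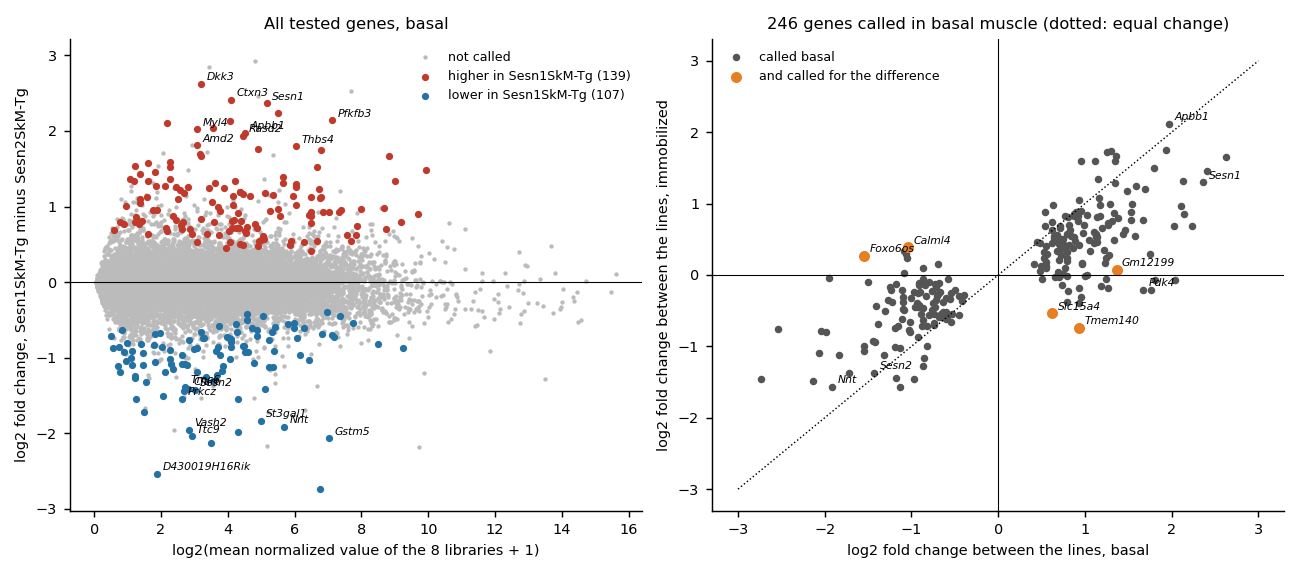
Left, each point is a gene, by log2(mean of the 8 libraries + 1) on the x axis and log2 fold change of Sesn1SkM-Tg over Sesn2SkM-Tg on the y axis, with 139 genes called higher and 107 called lower in colour on both sides of a cloud whose median is -0.02. Right, the 246 called genes by their log2 fold change between the lines in basal (x axis) and immobilized muscle (y axis), where 218 lie on the same side of 0 in both and the 5 orange points differed between the conditions.

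The transgenes were read first, as a check of the labels. Sesn1 measured 52.9, 77.6, 65.4 and 41.6 in the 4 Sesn1SkM-Tg libraries, 20.6, 22.1, 16.4 and 14.98 in WT and 11.7, 6.997, 12.1 and 11.8 in Sesn2SkM-Tg. Every Sesn1SkM-Tg library lay above every library of the other genotypes, and Sesn1 was 5.58-fold higher than in Sesn2SkM-Tg (log2 fold change 2.37 ± 0.22 SE, adjusted p = 1.5e-06). Sesn2 measured 6.54, 10.9, 12.6 and 13.03 in Sesn2SkM-Tg, 2.46, 2.5002, 3.39 and 2.18 in WT and 2.89, 3.44, 2.84 and 3.92 in Sesn1SkM-Tg. Its Sesn2SkM-Tg libraries lay above all others, by 3.29-fold over Sesn1SkM-Tg (log2 fold change -1.43 ± 0.20 SE, adjusted p = 0.00039). Each label was thus matched by its gene. The transgene cDNAs are human while reads were assigned to mouse transcripts, so these values hold the transgenes only as far as human reads matched the mouse genes.

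The Sesn1 values of Sesn2SkM-Tg all lay below those of WT, but that difference did not pass the test (log2 fold change -0.76, adjusted p = 0.074). Sesn3, the third sestrin, measured 4.24, 3.82, 2.44 and 4.12 in Sesn1SkM-Tg, 4.72, 5.32, 9.37 and 3.34 in WT and 1.82, 0.768, 2.51 and 2.297 in Sesn2SkM-Tg, with overlap between the lines by 1 pair of libraries (log2 fold change 0.74 ± 0.27 SE, adjusted p = 0.19). Per kilobase of all exons of the mouse gene, a rough scale for endogenous genes, the mean level in Sesn1SkM-Tg was 14.9 for Sesn1, 0.942 for Sesn2 and 0.239 for Sesn3. In Sesn2SkM-Tg these levels were 2.67, 3.10 and 0.121, and in WT they were 4.65, 0.758 and 0.373. The transgenes are human cDNAs, so the mouse exon length is not theirs and their reads are counted only in part. The level of a transgenic sestrin therefore cannot be ranked against an endogenous one. Against WT, Sesn1 was higher by 1.61 in Sesn1SkM-Tg and Sesn2 by 1.66 in Sesn2SkM-Tg on the log2 scale. Sesn3 was lower in Sesn2SkM-Tg than in WT (-1.21, adjusted p = 0.016), while in Sesn1SkM-Tg it differed from WT by -0.47 without passing.

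**Figure D2:**
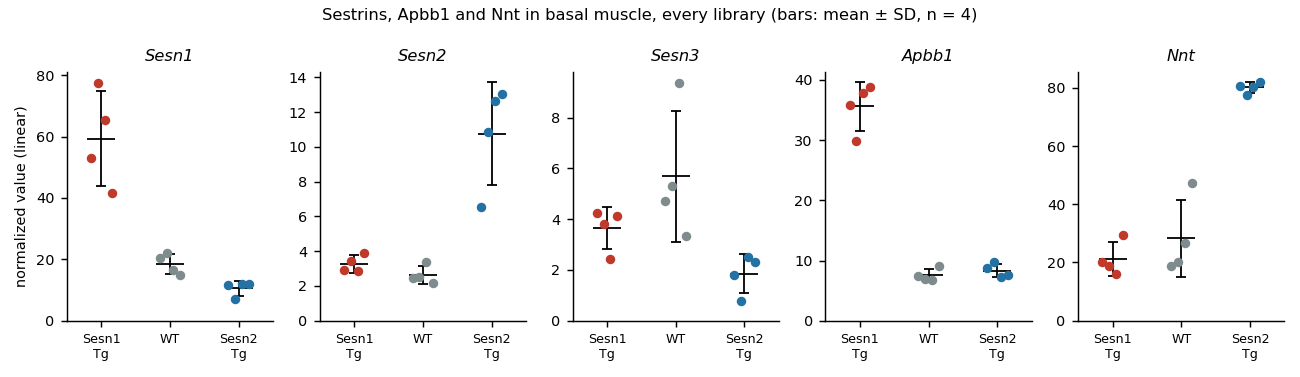
Normalized values (linear y axis) of Sesn1, Sesn2, Sesn3, Apbb1 and Nnt in each basal library of Sesn1SkM-Tg, WT and Sesn2SkM-Tg (points), with mean and SD (n = 4). Sesn1 separates Sesn1SkM-Tg and Sesn2 separates Sesn2SkM-Tg from the other groups, while the Sesn3 values of the lines overlap. Apbb1 is high in Sesn1SkM-Tg alone and Nnt highest in Sesn2SkM-Tg.

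The gene with the smallest adjusted p was Apbb1, which encodes FE65, an adaptor that binds the amyloid precursor protein. It measured 35.8, 29.8, 37.9 and 38.9 in Sesn1SkM-Tg, 7.49, 6.92, 6.79 and 9.13 in WT and 8.72, 9.72, 7.24 and 7.62 in Sesn2SkM-Tg. The Sesn1SkM-Tg libraries alone were high, by 4.28-fold over Sesn2SkM-Tg (log2 fold change 1.97 ± 0.14 SE, adjusted p = 2.4e-08). Apbb1 lies on the minus strand of chromosome 7 (chr7:105558483-105581653, GRCm38), and its neighbours were examined: 20 genes tested within 1 Mb, Apbb1 included, held 3 calls (15%), all higher in Sesn1SkM-Tg, beside 1.79% of all genes. Apbb1 is 1 of these 3 by the choice of the window, so 15% overstates the share among its neighbours. Trim3, an E3 ubiquitin ligase gene that starts 46.0 kb away (chr7:105604463-105633571), measured 24.9, 20.5, 22.7 and 23.03 in Sesn1SkM-Tg against 12.4, 15.7, 13.1 and 12.6 in Sesn2SkM-Tg, with no overlap (log2 fold change 0.72 ± 0.12 SE, adjusted p = 0.0023), and 14.7, 12.3, 12.8 and 15.9 in WT. Dnhd1, a dynein heavy chain domain gene 92.3 kb away (chr7:105650827-105721799), measured 3.69, 3.16, 1.63 and 1.78 against 0.496, 0.748, 0.569 and 0.647 (log2 fold change 1.10 ± 0.21 SE, adjusted p = 0.0053). WT lay between the lines at 0.763, 1.595, 0.973 and 0.581, with 1 library inside the Sesn2SkM-Tg range. Smpd1, which encodes acid sphingomyelinase and is the nearest neighbour on the other side, averaged 118 ± 45.8 and 71.8 ± 11.2 (SD, n = 4) and did not pass (0.62, adjusted p = 0.35). None of the remaining 16 neighbours was called, among them Ilk, the integrin-linked kinase, at means of 32.9 and 32.3, and Tpp1, a lysosomal peptidase, at 50.4 and 47.3 in Sesn1SkM-Tg and Sesn2SkM-Tg. Both called neighbours start on the same side of Apbb1.

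**Figure D3:**
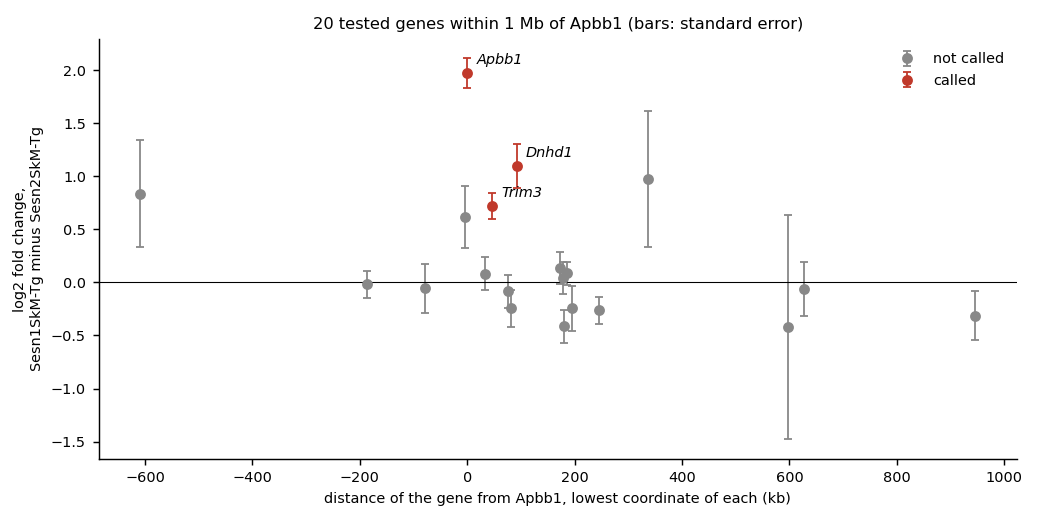
Log2 fold change between the lines (y axis) of the 20 genes tested within 1 Mb of Apbb1, by distance from it in kilobases (x axis), with bars of 1 SE. Apbb1 at 1.97, Dnhd1 at 1.10 and Trim3 at 0.72 are the called genes, while the others lie on both sides of 0 without passing the test.

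Nnt, the mitochondrial transhydrogenase that makes NADPH and that is known to be disrupted in the C57BL/6J substrain, was lower in Sesn1SkM-Tg. It measured 20.1, 18.7, 15.96 and 29.5 in Sesn1SkM-Tg and 80.7, 77.5, 80.3 and 82.1 in Sesn2SkM-Tg, 3.81-fold apart (log2 fold change -1.91 ± 0.29 SE, adjusted p = 0.00067). The Sesn2SkM-Tg libraries were close to each other and above every other basal library, since WT measured 18.8, 20.2, 26.7 and 47.4. Of 6 genes listed as differing between C57BL/6 substrains, Nnt was the 1 called, and their median log2 fold change was -0.15. Whether the Nnt difference follows the strain history or the sestrin cannot be told apart, as each line has 1 background.

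Among genes called in all fits, coding, not overlapping and at 5 or more in the higher group, 71 qualified (46 higher, 25 lower), and of the 10 with the largest fold in each direction, which include Sesn1, Sesn2, Apbb1 and Nnt, the others reported here follow. Dkk3, a secreted glycoprotein related to WNT antagonists, measured 18.4, 14.7, 14.6 and 11.98 in Sesn1SkM-Tg, 29.1, 25.4, 31.4 and 8.47 in WT and 1.08, 2.23, 1.23 and 1.805 in Sesn2SkM-Tg. The low group was Sesn2SkM-Tg (log2 fold change 2.63 ± 0.34 SE, adjusted p = 0.00015). Ctxn3, a small membrane protein of the cortexin family, measured 31.9, 27.1, 29.6 and 22.2 against 3.599, 3.52, 5.48 and 5.11 (log2 fold change 2.41 ± 0.20 SE, adjusted p = 3.1e-07), with WT at 35.2, 26.1, 21.8 and 23.7. Pfkfb3, the enzyme that makes fructose-2,6-bisphosphate and so activates glycolysis, measured 309, 246, 146 and 209 against 53.3, 36.2, 52.7 and 57.2. That was a 4.57-fold difference (log2 fold change 2.14 ± 0.29 SE, adjusted p = 0.00024), with WT higher than both on average at 512, 489, 347 and 236. For Dkk3, Ctxn3 and Pfkfb3 it was thus the Sesn2SkM-Tg libraries that lay away from the rest.

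Myl4, an embryonic and atrial myosin light chain, measured 18.6, 12.2, 9.34 and 9.97 against 1.68, 4.11, 1.43 and 2.23 (2.02, adjusted p = 0.00091). Rasd2, a small GTPase of the Ras family, measured 37.99, 32.5, 27.6 and 36.5 against 11.4, 5.46, 7.62 and 8.59 (1.93, adjusted p = 0.00041). In both, WT was on the Sesn1SkM-Tg side, with means of 14.1 and 37.02. Thbs4, a matrix glycoprotein of tendon and muscle, measured 106, 117, 117 and 62.3 against 21.7, 34.98, 14.6 and 49.6 (log2 fold change 1.80 ± 0.30 SE, adjusted p = 0.0021). Amd2, a close copy of Amd1, which encodes the S-adenosylmethionine decarboxylase of polyamine synthesis, measured 11.2, 12.9, 10.99 and 11.3 against 4.47, 0.07804, 4.23 and 4.36 (log2 fold change 1.81 ± 0.37 SE, adjusted p = 0.011). Its fold rests in part on the 0.07804 of Sesn2SkM-Tg replicate 2, without which it was 1.23, and reads of the near-identical Amd copies are uncertain in their assignment.

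D430019H16Rik, a coding gene with no established name, had the largest fold among the 25 qualifying genes that were lower in Sesn1SkM-Tg. It stood at 0.0441, 0.0368, 0.102 and 0.0406 in Sesn1SkM-Tg and at 0.167, 0.0448, 0.114 and 0.121 in WT, near the lowest values a library holds (0.00822 to 0.0216), and at 6.77, 5.52, 5.77 and 3.07 in Sesn2SkM-Tg (log2 fold change -2.53 ± 0.31 SE, adjusted p = 9.1e-05), and the fold depends on the pseudocount, being -5.07 with 0.1 in place of 1. Gstm5, a mu-class glutathione transferase, measured 43.3, 40.6, 48.1 and 48.4 against 268, 326, 179.6 and 86.1 (log2 fold change -2.07 ± 0.38 SE, adjusted p = 0.0046). WT was at the Sesn1SkM-Tg level in most libraries, at 44.1, 43.8, 38.8 and 58.5. Nearly identical Gstm genes may share reads, so the assignment to Gstm5 is uncertain. St3gal1, a sialyltransferase, measured 13.2, 13.4, 14.7 and 10.5 against 48.4, 43.2, 55.9 and 46.9 (log2 fold change -1.83 ± 0.27 SE, adjusted p = 0.00058). Prkcz, the atypical protein kinase C zeta, measured 2.26, 1.63, 3.1002 and 1.81 against 7.32, 9.39, 8.41 and 7.81 (log2 fold change -1.55 ± 0.19 SE, adjusted p = 9.1e-05). For St3gal1 and Prkcz the WT means were close to those of Sesn1SkM-Tg, at 11.7 and 2.25.

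Ttc9, a tetratricopeptide repeat protein, measured 1.37, 1.399, 2.804 and 2.03 against 7.48, 17.1, 9.44 and 10.7 (-2.04, adjusted p = 0.0026). Vash2, a vasohibin whose family removes the last tyrosine of tubulin, measured 0.913, 2.8997, 1.91 and 1.401 against 6.58, 7.66, 20.98 and 7.07 (-1.95, adjusted p = 0.0035). Sesn2SkM-Tg replicate 3 was the highest Vash2 library by a wide gap, and the lines did not overlap without it either. Tmc6, a membrane protein of the transmembrane channel-like family, measured 2.77, 1.38, 2.84 and 3.097 against 12.3, 9.21, 8.74 and 3.9997 (-1.39, adjusted p = 0.006). Ciart, a clock repressor, is described with the clock genes.

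**Figure D4:**
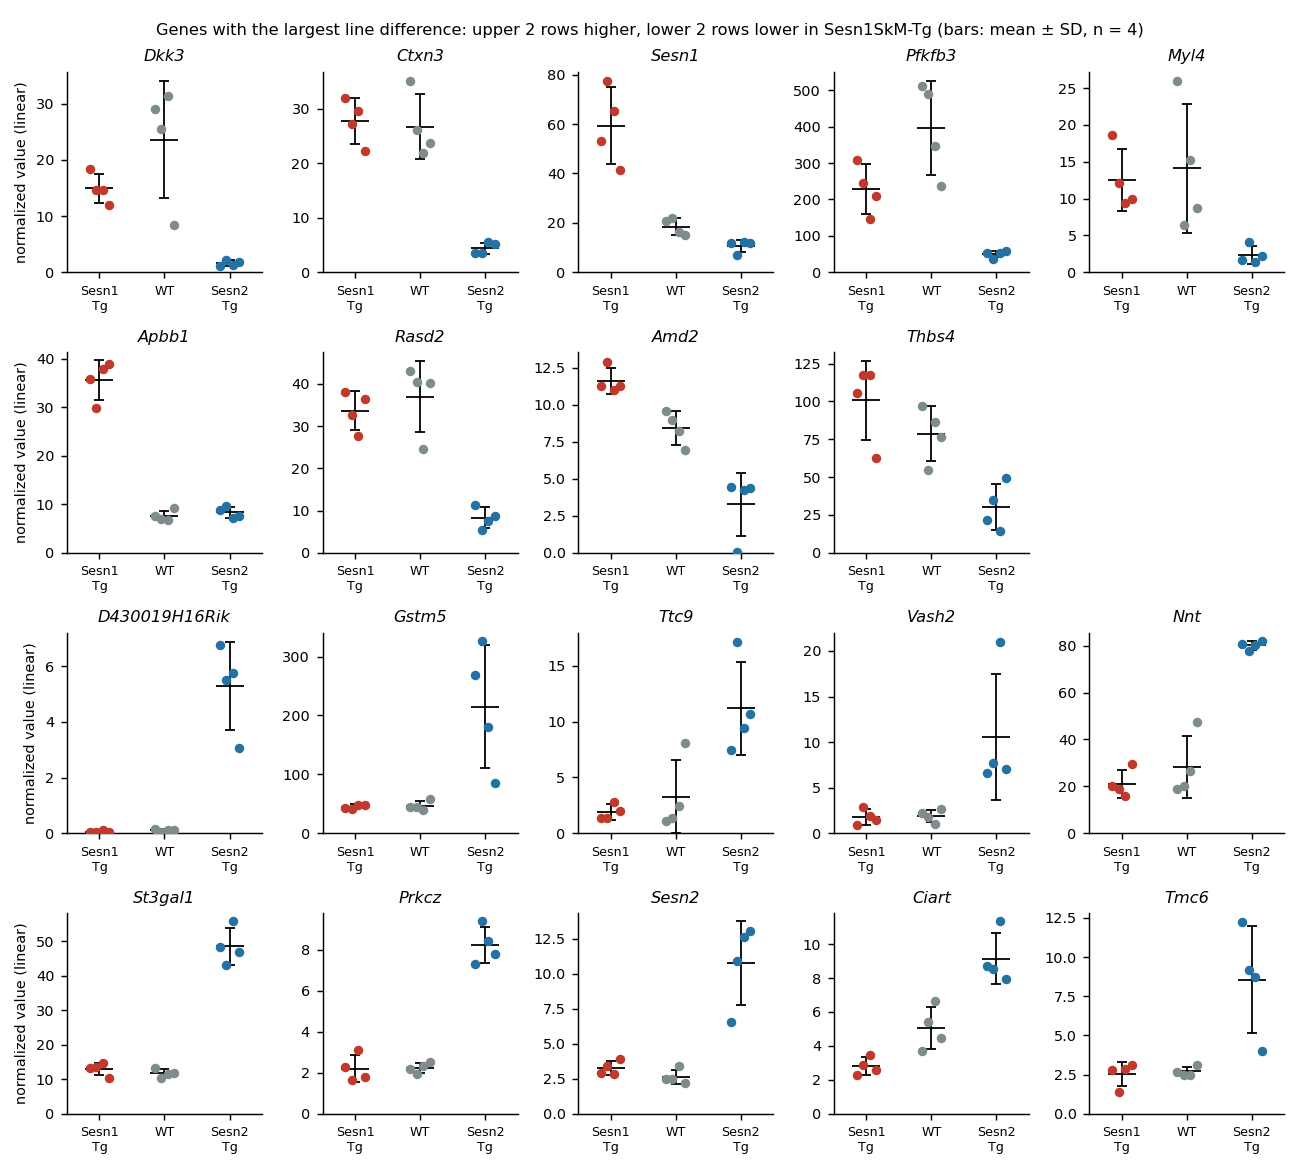
Values of the genes with the largest fold between the lines that did not overlap and were called in all fits, for each basal library of Sesn1SkM-Tg, WT and Sesn2SkM-Tg (points on a linear y axis, bars mean and SD, n = 4). For most genes the WT points lie nearer to the Sesn1SkM-Tg points, while for Apbb1 and Sesn1 they lie nearer to the Sesn2SkM-Tg points.

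The network that sestrins act on was then read gene by gene. Of 27 genes of the GATOR, Rag and Ragulator complexes, 1 was called higher and 0 lower in Sesn1SkM-Tg, and their median log2 fold change was 0.02, beside -0.02 over all genes. The called member was Gatsl2 (CASTOR2), a relative of the arginine sensor that binds GATOR2, which measured 132, 99.1, 93.3 and 127 against 72.9, 48.5, 68.9 and 72.3, without overlap (log2 fold change 0.78 ± 0.17 SE, adjusted p = 0.014). It was called in 6 of the 8 fits that leave out a library. Of 29 mTORC1 and AMPK genes, 1 was higher and 0 lower (median -0.03). This was Prkag3, the gamma subunit of AMPK found in fast glycolytic muscle, at 170.3, 146, 133 and 136 against 77.05, 47.5, 84.4 and 63.8 (log2 fold change 1.12 ± 0.23 SE, adjusted p = 0.011). Among 26 genes of insulin, IGF, AKT and FoxO signaling, 1 was called higher and 0 lower (beside 1.01% and 0.781% of all genes), and the median of 0.18 was 0.04 without Sesn2SkM-Tg replicate 2 and 0.04 with each library's difference between short and long genes (its length index) as a covariate, added after seeing the data. Igfbp5, a binding protein of insulin-like growth factors, measured 765, 838, 640.0 and 683 against 315, 173, 292 and 419.6 (log2 fold change 1.34 ± 0.28 SE, adjusted p = 0.012). Prkag3 and Igfbp5 were each called in 7 of the 8 fits, and their lines did not overlap.

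None of the listed genes of protein breakdown, in the lists of atrogenes, proteasome subunits and autophagy, was called in either direction. The atrophy ubiquitin ligases and other atrogenes had 0 calls among 22 by limma, with an unadjusted p under 0.05 in 6 higher and 3 lower (over all genes 14.3% had one, 6.14% higher and 8.11% lower), and a median of 0.26 that was 0.12 without Sesn2SkM-Tg replicate 2. Fbxo32 (atrogin-1), the F-box ligase of atrophy, measured 565, 521, 456 and 444 against 339, 141, 265 and 310.1 (log2 fold change 0.98 ± 0.33 SE, adjusted p = 0.16). Trim63 (MuRF1), the other well-known atrophy ligase, measured 234, 243, 239 and 285 against 205, 138, 218 and 209.6 (0.39, adjusted p = 0.55). The lines did not overlap for either gene, although neither passed. The 47 proteasome subunits had 0 calls (4 with an unadjusted p under 0.05, all lower), a share near the 8.11% of all genes, and their median of -0.10 was -0.05 without Sesn2SkM-Tg replicate 2 and 0.02 with equal sums. The 42 autophagy genes had 0 calls and a median of 0.07. At an unadjusted p under 0.05, 5 were higher and 1 lower, beside 6.14% and 8.11% of all genes. Sqstm1, the autophagy receptor p62, stood at 548 ± 45.2 and 451 ± 32.02 (SD, n = 4). The 26 genes of the myostatin and BMP pathways had 0 calls (3 unadjusted, median 0.10).

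Glucocorticoid response genes Pdk4, Sgk1 and Tsc22d3 were higher in Sesn1SkM-Tg. Of 19 genes on this list, these 3 were called higher and 0 lower, beside 1.01% and 0.781% of all genes, with a median of 0.16 that was -0.02 without Sesn2SkM-Tg replicate 2. Pdk4, the kinase that turns off pyruvate dehydrogenase in fasting, measured 733, 574, 474 and 928 against 189, 206, 122 and 372, with WT at 1064, 707, 1079 and 1045. Its lines did not overlap (log2 fold change 1.67 ± 0.29 SE, adjusted p = 0.003). Sgk1, a serum and glucocorticoid induced kinase, measured 251, 211, 200.0 and 204 against 124, 80.4, 151 and 99.6 (log2 fold change 0.96 ± 0.19 SE, adjusted p = 0.0089). Tsc22d3 (GILZ), an anti-inflammatory glucocorticoid target, measured 232, 193, 247 and 157 against 107, 72.6, 137 and 121 (log2 fold change 0.93 ± 0.19 SE, adjusted p = 0.0092). All 3 genes were called in all 8 fits. Summed over the list, the libraries ranged from 1579.5 to 1929.7 in Sesn1SkM-Tg and from 834 to 1202 in Sesn2SkM-Tg, with WT at 1619 to 2022, and Pdk4 makes up the largest part of the gap.

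In fuel metabolism, 3 of 45 glucose and glycogen genes were called, all higher, beside 1.01% of all genes, and the median was -0.06. They were Pfkfb3, Pdk4 and Phka1, the muscle alpha subunit of phosphorylase kinase, which starts glycogen breakdown and measured 1222, 1054, 1119 and 901 against 546, 389.6, 676 and 741 (log2 fold change 0.90 ± 0.21 SE, adjusted p = 0.03). Phka1 was called in 3 of the 8 fits. Of 43 fatty acid uptake and oxidation genes only Pdk4 was called (median -0.09). Pdk4 is on both of these lists and on the glucocorticoid list, so the same gene is counted in each.

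The circadian clock runs on activators, BMAL1 (encoded by Arntl) and CLOCK, that bind E-boxes (CACGTG) in the promoters of their repressors, and on REV-ERB and ROR factors that act on Arntl through elements spelled RevDR2 or RORE. Ciart (CHRONO), a repressor that binds BMAL1, and Arntl were the 2 called genes of 21 clock genes, beside 1.79% of all genes. They went in opposite directions, and the list median of 0.09 was -0.07 without Sesn2SkM-Tg replicate 2. The RefSeq promoters of Ciart and Arntl (GRCm38.p6, 250 bases before to 50 after the start) are shown 5′ to 3′ because these were the called clock genes. Capitals mark CACGTG in Ciart (chr3:95882179-95882478, minus strand). In Arntl (chr7:113207261-113207560, plus strand) they mark TAGGTNA, a core of the REV-ERB and ROR element.
Ciart: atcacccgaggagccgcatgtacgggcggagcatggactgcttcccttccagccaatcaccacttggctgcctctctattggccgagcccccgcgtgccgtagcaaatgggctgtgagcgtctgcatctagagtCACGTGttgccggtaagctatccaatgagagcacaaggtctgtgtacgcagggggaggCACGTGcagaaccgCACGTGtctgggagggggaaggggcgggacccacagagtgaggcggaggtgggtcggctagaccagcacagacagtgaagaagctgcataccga
Arntl: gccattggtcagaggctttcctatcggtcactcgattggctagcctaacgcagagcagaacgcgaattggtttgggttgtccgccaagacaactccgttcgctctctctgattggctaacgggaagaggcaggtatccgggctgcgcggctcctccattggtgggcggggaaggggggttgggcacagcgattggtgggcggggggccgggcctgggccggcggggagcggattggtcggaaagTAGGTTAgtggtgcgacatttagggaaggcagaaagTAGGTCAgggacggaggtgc
The Ciart window holds CACGTG 3 times, while 7.15% of 32851 promoters of the same length hold it at least once and 0.0883% at least 3 times. The Arntl window holds TAGGTNA, searched on both strands, 2 times, while 8.29% hold it at least once and 0.557% at least 2 times. Of 22 clock genes on the list, 18 had a promoter in the table, 5 with CACGTG (Per1, Cry1, Tef, Bhlhe41 and Ciart) and 2 with TAGGTNA (Arntl and Nfil3).

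Ciart measured 2.301, 2.89, 3.48 and 2.58 in Sesn1SkM-Tg, 3.71, 5.41, 6.63 and 4.46 in WT and 8.74, 8.55, 11.4 and 7.96 in Sesn2SkM-Tg. The order of the groups was Sesn1SkM-Tg, WT and Sesn2SkM-Tg without overlap between neighbours, and the lines were 3.25-fold apart (log2 fold change -1.41 ± 0.22 SE, adjusted p = 0.00093). Arntl measured 30.9, 25.8, 27.3 and 26.8 in Sesn1SkM-Tg and 11.6, 11.4, 8.46 and 15.8 in Sesn2SkM-Tg, also without overlap (log2 fold change 1.19 ± 0.29 SE, adjusted p = 0.034), but with WT spread over both at 36.4, 21.6, 10.005 and 9.26, and it was called in 1 of the 8 fits. Per1, a repressor with a matched E-box, measured 39.4, 24.8, 12.9 and 22.9 against 44.5, 66.6, 84.5 and 37.7 and did not pass (log2 fold change -1.22 ± 0.33 SE, adjusted p = 0.066). The other E-box genes Cry1, Tef and Bhlhe41 had log2 fold changes of 0.33, 0.23 and 0.15, on the other side of 0 from Ciart and Per1, and none of them was called. Dbp, an output gene of the clock, measured 30.3, 35.3, 54.4 and 38.5 against 76.1, 81.1, 68.8 and 57.4 (-0.84, adjusted p = 0.19), Per2 differed by -0.72 and Per3 by -0.58, and the REV-ERB genes Nr1d1 and Nr1d2 by 0.27 and 0.08, none of which passed. The hour at which each muscle was taken is not given in the sources used here.

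Of 50 antioxidant, glutathione and NRF2 target genes, 3 were called higher and 1 lower, beside 1.01% and 0.781% of all genes. Their median of -0.08 changed sign without Sesn2SkM-Tg replicate 2 (0.06), with the length covariate (0.06) and with equal sums (0.04). Nqo1, the quinone reductase that is a standard NRF2 target, measured 27.3, 21.8, 21.7 and 27.9 against 13.4, 13.2, 14.1 and 9.84 (log2 fold change 0.92 ± 0.17 SE, adjusted p = 0.0053). Gpx3, a secreted glutathione peroxidase, measured 158, 124, 110.4 and 197 against 68.9, 115, 48.2 and 47.2 (log2 fold change 1.13 ± 0.23 SE, adjusted p = 0.0092). Nqo1 did not overlap between the lines, Gpx3 did, and both were called in all 8 fits. Gstm2 was higher (0.71, adjusted p = 0.049, called in 2 of the 8 fits) while its relative Gstm5 was the 1 gene called lower, and Gstm1 was not called (0.04). Assignment among these Gstm genes is uncertain. Of 26 integrated stress response genes, Sesn2 itself and Chac1, which degrades glutathione, were called. Chac1 measured 79.8, 23.01, 22.97 and 57.8 against 16.3, 11.7, 11.5 and 6.496 (log2 fold change 1.76 ± 0.41 SE, adjusted p = 0.025, called in 3 of the 8 fits). Of 21 p53 targets the 2 called were Sesn1 and Sesn2, the genes of the transgenes. The 31 heat shock genes had 0 calls (4 higher and 1 lower unadjusted, median -0.04). The 25 immediate early and activity genes also had 0 (4 unadjusted, all lower, median -0.15, or -0.05 without Sesn2SkM-Tg replicate 2). Over all genes, 6.14% were higher and 8.11% lower at an unadjusted p under 0.05.

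Sarcomere genes of slow and oxidative fibers leaned to Sesn2SkM-Tg with a wide spread. Of 18 tested, 1 was called lower in Sesn1SkM-Tg and 0 higher, beside 0.781% and 1.01% of all genes. Their median of -0.59 was -0.25 without Sesn2SkM-Tg replicate 2. Myl3, the slow ventricular light chain, measured 17.5, 18.98, 9.12 and 76.2 against 169, 326, 54.99 and 184, with overlap and with WT at 15.9, 16.9, 64.9 and 115 (log2 fold change -2.74 ± 0.62 SE, adjusted p = 0.022, called in 2 of the 8 fits). Myh2, the IIa myosin, measured 194, 299.7, 57.8 and 952 against 1307, 2115, 318 and 1586 (-2.18, adjusted p = 0.17). Myh1, the IIx myosin, measured 6364, 6334, 4952 and 9704 against 14650.4, 19567, 13671 and 17534 (-1.29, adjusted p = 0.10). Myh1 did not overlap between the lines and Myh2 did, and neither passed. WT libraries spanned nearly the range of both lines for Myh1, from 5078 to 27425. In bulk muscle, fewer fibers of a type and less RNA per fiber cannot be told apart. Of 19 fast fiber genes 1 was called, Mybph, a myosin binding protein, at 44.8, 15.5, 22.2 and 22.3 against 6.77, 4.54, 8.07 and 1.82 (log2 fold change 2.13 ± 0.55 SE, adjusted p = 0.048), and it was called in 0 of the 8 fits.

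The 29 genes of excitation-contraction coupling and membrane channels had 0 calls (6 unadjusted, median 0.02), with Ryr1, the calcium release channel, at 3713 ± 717 and 4345 ± 823 (SD, n = 4). The 6 creatine genes had 0 calls (1 unadjusted, median -0.14). Of 24 neuromuscular junction and denervation genes, Dkk3 was called higher and 0 were lower, beside 1.01% and 0.781% of all genes. At an unadjusted p under 0.05, 8 were lower and 2 higher, beside 8.11% and 6.14% of all genes (14.3% in either direction). The median of the 24 genes was -0.34. Ache, the acetylcholinesterase, measured 17.3, 23.1, 17.9 and 33.5 against 53.6, 94.2, 57.2 and 37.04 and did not pass (log2 fold change -1.33, adjusted p = 0.075).

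Mitochondrial and ribosomal genes had small negative differences, few of which passed. Of 80 oxidative phosphorylation genes all 80 had a negative difference, beside 7326 of all 13705 genes, and their median was -0.43. At an unadjusted p under 0.05, 44 of them were lower and 0 higher, beside 8.11% and 6.14% of all genes. Only 3 were called, all lower, beside 0.781% of all genes. Besides Nnt, these were Cox8b, a heart and muscle subunit of cytochrome oxidase, at 241, 228, 260.1 and 299.7 against 423, 697, 359.6 and 393 (log2 fold change -0.82 ± 0.20 SE, adjusted p = 0.038), and Ndufa1, a subunit of complex I, at 60.9, 56.4, 63.3 and 61.2 against 90.5, 123, 79.4 and 81.9 (log2 fold change -0.60 ± 0.15 SE, adjusted p = 0.039). Both did not overlap, and they were called in 3 and 2 of the 8 fits. The list summed to 22341 to 29105 in Sesn1SkM-Tg, 27255 to 44986 in Sesn2SkM-Tg and 19816 to 37684 in WT, so that WT covered almost the range of both. The 80 cytosolic ribosomal proteins had 0 calls (26 unadjusted, all lower, median -0.27), and the 77 mitochondrial ones had 0 (13 unadjusted, all lower, median -0.24), where 8.11% of all genes were lower at an unadjusted p under 0.05. With equal library sums the medians of these lists were -0.31, -0.15 and -0.12, beside 0.07 over all genes. The library that stood apart moved with them: without Sesn2SkM-Tg replicate 2 the medians were -0.28, -0.13 and -0.11, and the median of all short genes went from -0.14 to -0.07. Of the oxidative phosphorylation list, only Nnt, the transhydrogenase also listed as a substrain gene, was then called. Cox8b and Ndufa1 lost their calls (adjusted p = 0.16 for each). With the length index of each library as a covariate, added after seeing the data, the list medians were -0.22, -0.08 and -0.08, and 5 oxidative phosphorylation genes were called.

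**Figure D5:**
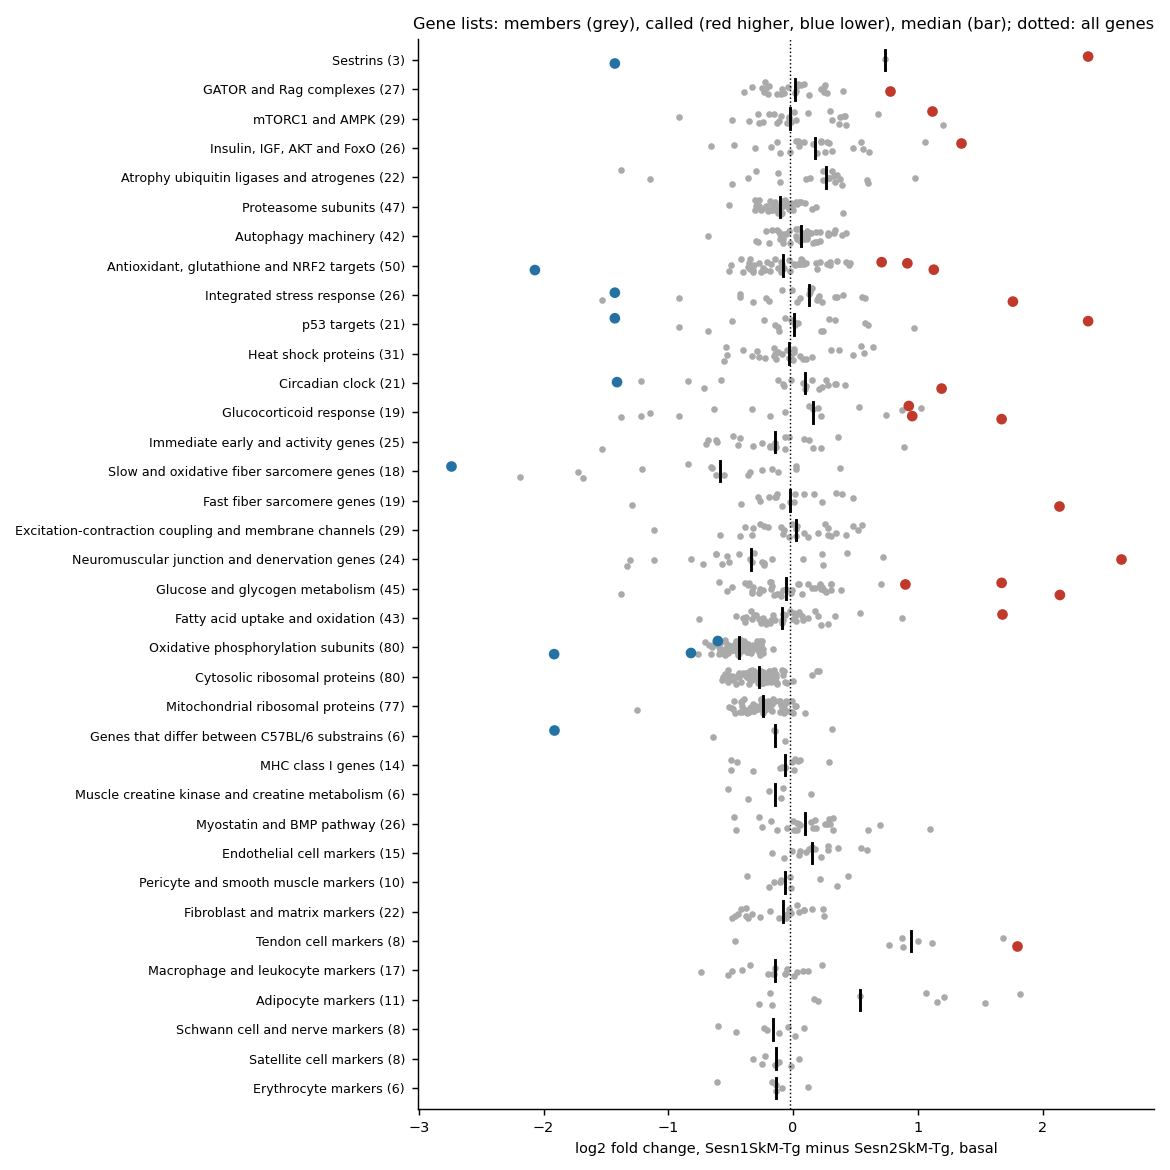
Log2 fold change between the lines (x axis) of every tested gene of each list (rows, number of genes in brackets), with called genes coloured and the list median as a bar. The dotted line is the median of all genes, -0.02, and the oxidative phosphorylation row lies wholly to its left while the tendon row has its median at 0.94.

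Of the markers of other cells of the muscle, 1 tendon gene was called. Over all genes, 6.14% were higher and 8.11% lower at an unadjusted p under 0.05, and 1.01% and 0.781% were called. The 15 endothelial (2 unadjusted, median 0.15), 10 pericyte and smooth muscle (0, -0.06), 22 fibroblast and matrix (2, -0.08), 17 macrophage and leukocyte (0, -0.14), 8 Schwann and nerve (0, -0.16), 8 satellite (0, -0.14), 6 erythrocyte (0, -0.13) and 14 MHC class I genes (2, -0.06) had 0 limma calls in each list. Erythrocyte markers varied most, with a sum of 282 to 453 in Sesn1SkM-Tg and 239 to 1344 in Sesn2SkM-Tg. Tendon markers leaned to Sesn1SkM-Tg: 7 of 8 were positive, 6 at an unadjusted p under 0.05, with a median of 0.94, and Thbs4 was the 1 called. Their sum was 95.8 to 219 in Sesn1SkM-Tg, 26.9 to 97.7 in Sesn2SkM-Tg and 75.1 to 194 in WT. Fmod, a tendon proteoglycan, measured 68.4, 71.9, 75.2 and 23.6 against 15.6, 22.4, 5.49 and 34.3, and Tnmd, a defining tendon gene, 4.53, 4.72, 5.26 and 1.75 against 1.501, 1.98, 0.487 and 2.03, neither past the test (adjusted p = 0.25 and 0.22). Thbs4 is itself on this list and enters its counts, median and sum. It averaged 101 in Sesn1SkM-Tg and 30.2 in Sesn2SkM-Tg, where the list sums averaged 181 and 61.1. The part of tendon tissue in Thbs4 was not tested. Adipocyte markers had 0 calls among 11 (5 unadjusted, all higher, median 0.54), with Cfd, the adipsin gene, at 4.81, 22.6, 15.6 and 2.87 against 1.25, 2.705, 1.21 and 2.07 (1.82, adjusted p = 0.19).

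WT muscle, which takes no part in the difference between the lines, gave each called gene a place, with the line of origin of these littermates unknown. Its mean was nearer to Sesn1SkM-Tg for 219 of the 246 genes and nearer to Sesn2SkM-Tg for 27, and it lay between the line means for 165. No share over all genes tested stands beside these counts, so they only describe the called genes. Against WT, 343 genes (2.50%) differed in Sesn2SkM-Tg and 4 (0.0292%) in Sesn1SkM-Tg, a pair of comparisons that share the WT libraries. The 4 were Sesn1, Apbb1, Trim3 and Enho, which encodes the secreted peptide adropin. Side by side, Apbb1 differed from WT by 2.09 in Sesn1SkM-Tg and 0.12 in Sesn2SkM-Tg. Dkk3 differed by -0.50 and -3.13. Pdk4 differed by -0.55 and -2.22, and Ciart by -0.65 and 0.76.

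The positions of the called genes were otherwise scattered. Called shares ran from 0.901% on chromosome X to 2.52% on chromosome 13 among chromosomes with calls, and 8 pairs of called genes were neighbours among tested genes. Both genes went the same way in every pair but Nmrk2 and Atcay. No background number of such pairs, or of tested neighbours with equal sign, is given, so the pairs are only a description. Amd1 with Cdk19, Scd2 with Scd1, Dkk3 with Mical2, Htra4 with Plekha2 and Tmem132b with Slc15a4 were higher in Sesn1SkM-Tg, while Shc4 with Eid1 and C030014I23Rik with Bcl9l were lower.

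The immobilized libraries gave the same comparison in muscles that do not enter the basal group means. All 22 libraries shared 1 fit, however, so the calls of both comparisons rest on the same estimate of spread for each gene. With only the 8 basal libraries of the lines in the fit, 202 genes were called, 152 of them among the 246. After immobilization, 793 genes (5.79%) differed between the lines. Of the 246 basal genes, 218 (88.6%) had the same sign after immobilization, beside 63.4% of all 13705 genes, and 75 (30.5%) were called there, all 75 with the same sign, which is 9.46% of the 793. Sesn1 measured 51.1, 46.9 and 22.96 in the 3 immobilized Sesn1SkM-Tg and 15.6, 16.2, 13.95 and 13.9 in the 4 immobilized Sesn2SkM-Tg libraries (log2 fold change 1.30). Apbb1 measured 27.7, 28.7 and 29.2 against 6.8001, 4.49, 5.59 and 6.6004, a difference of 2.12 beside 1.97 at rest. Nnt measured 13.1, 16.7 and 10.4 against 65.1, 39.8, 20.02 and 53.6, a difference of -1.56. Of the 20 genes with the largest folds in all basal fits, 19 kept their sign and 10 were called, Dkk3 (1.65), Ctxn3 (1.46) and Rasd2 (1.75) among them, while Vash2 differed by -0.05 and Amd2 by -0.07. The count of 793 moved from 146 to 1308 when single immobilized libraries were left out.

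Pdk4 was not called after immobilization, where it measured 592, 446 and 613 against 635, 485, 471 and 1081 (-0.21), and the glucocorticoid list had a median of -0.42. The change in the line difference itself, tested as an interaction, did not pass for Pdk4, Sgk1 or Tsc22d3 (adjusted p = 0.07, 0.07 and 0.055), nor for Fbxo32 (0.07), whose difference was 0.98 at rest and -1.17 after immobilization. It passed for 15 genes (0.109%), in 7 of which the line difference was more positive at rest. Plin4, a coat protein of lipid droplets, was such a gene, at 208 ± 20.7 and 237 ± 45.5 at rest and with differences of -0.17 at rest and -1.81 after immobilization. The collagen genes Col6a1 and Col6a2 went from -0.42 and -0.44 at rest to 1.41 and 1.46. Markers of other cells moved with the immobilized comparison: fibroblast markers had a median of 1.18 (14 of 22 called) and macrophage markers 1.48 (9 of 17), against -0.08 and -0.14 at rest, and their part in its calls was not tested.

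In the immobilized libraries the oxidative phosphorylation and tendon lists had medians of -0.41 and 0.89, while the clock list had -0.19, with Ciart at -0.44 and Arntl at -0.16. Gatsl2, Prkag3, Igfbp5 and Nqo1 differed after immobilization by 0.82, 1.59, 1.28 and 0.76, and each was called there too.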

How the data were processed

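TA muscle RNA was sequenced by the authors from 200 ng of total RNA with the NEBNext Ultra kit, which does not mark strand, on a HiSeq 2500. They checked reads with FastQC, trimmed them with Cutadapt 1.7.1 (reads under 30 bp dropped), and quantified them with RSEM 1.2.20 on the GRCm38 transcriptome of Ensembl release 76. The deposited values are a normalized signal per gene (counts normalized with limma, without a log, no value at 0), so no count test was run. edgeR is also named in the submitters' processing notes. How the sets were combined is not given in the sources used here, and comparisons were kept within set 1.

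Genes that reached 1 in any of the 22 libraries were kept (13705 of 13809), and log2(value + 1) was fitted with limma 3.58.1 in R 4.3.3 for all 6 groups of set 1 with eBayes and a trend. Two-sided p-values were corrected over all genes (Benjamini-Hochberg). Groups and replicate numbers come from the sample labels, which do not name separate animals, so p-values measure the spread between these libraries. Positions come from GENCODE M21 and promoter sequences from RefSeq (GRCm38.p6). The fit was also run on simulated data for this contrast, with independent normal noise for each gene and no deviation shared by a whole library. It recovered 148 of 200 genes changed by 1 on the log2 scale (74%) and 197 of 200 changed by 2 (98.5%). False calls among the unchanged genes were 11 and 16. Such data hold no library that stands apart as Sesn2SkM-Tg replicate 2 does, so these numbers are not the error rate of the real calls. Named genes are the sestrins, Apbb1, Nnt, the 10 largest folds in each direction under the criteria in the report, up to 5 called members of each list (or the most abundant where none was called) and the neighbours of Apbb1. Of the genes this rule selects, 1 is not reported here. Other named members were added after their values were seen. The members and lists were chosen with earlier results of these data known. The alternatives tried were other filters, pseudocounts, scalings, eBayes settings and sets of libraries, a replicate block, each library left out, and, chosen after seeing the data, a length covariate and leaving out both libraries with the highest length index. Tables and figures were made with Python 3.11.15.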

Additional observations from a re-analysis of the deposited data

Results flagged for a closer look

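In 5 of the 46 groups of 4 libraries examined for the genes with the largest folds, a library lay far from the others by Dixon's criterion, which chance alone meets in about 1 group in 20. Sesn2SkM-Tg replicate 2 was the lowest of its group for Sesn1 at 6.997 and for Amd2 at 0.07804, and Sesn1SkM-Tg replicate 2 was the highest for Amd2 at 12.9. The others were D430019H16Rik in Sesn1SkM-Tg replicate 3, at 0.102, which is near the lowest values of the table, and Vash2 in Sesn2SkM-Tg replicate 3, at 20.98.

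For 5 genes called at rest, the line difference itself differed between basal and immobilized muscle (interaction in limma, adjusted p under 0.05 over all genes tested). As basal minus immobilized on the log2 scale, it was 1.16 for Slc15a4, a lysosomal histidine and peptide transporter (0.62 at rest, -0.54 after immobilization). It was -1.43 for Calml4, a calmodulin-like protein (-1.04 and 0.39). It was 1.68 for the membrane protein gene Tmem140 (0.94 and -0.74) and 1.29 for Gm12199 (1.37 and 0.07). Foxo6os, antisense to Foxo6, gave -1.82 (-1.55 and 0.27), and since the kit does not mark strand its reads cannot be told apart from those of Foxo6 (-0.65 at rest, adjusted p = 0.16). The number of such genes rests on single libraries, since without immobilized Sesn1SkM-Tg replicate 1 it was 231 in place of 15.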

How the results depend on the processing

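The basal count of 246 (139 higher, 107 lower) ran from 128 to 201 when single basal libraries were left out (70 to 115 higher, 56 to 87 lower), and changed by over 1.5 times without Sesn1SkM-Tg replicates 1, 2 and 3 (132, 148 and 149) and without Sesn2SkM-Tg replicates 2 and 3 (128 and 149). With only the 8 compared libraries and a replicate block it was 71 (42 higher, 29 lower). With a threshold of 1 on the log2 scale it was 112. Equal sums gave 65 lower, and the length covariate, added after seeing the data, gave 173 lower. The block over all 22 libraries gave 219 calls. Deviations from the group means correlated at 0.02, -0.27, -0.13 and -0.24 between same-numbered libraries of the lines. These values show no clear pairing by number, but with 4 libraries in each line they cannot exclude it. The remaining alternatives for the basal count stayed within 1.5 times of it. No named gene that was called changed sign under the alternatives run, while 30 named genes that were not called did. Of 36 list medians, 10 changed sign without Sesn2SkM-Tg replicate 2 (GATOR, antioxidant, p53, clock, glucocorticoid, fast fiber, excitation-contraction, MHC class I, pericyte and erythrocyte), 10 with equal sums and 9 with the length covariate. Of the 20 largest folds, Amd2 lost its call with a pseudocount of 0.1, with only the 8 compared libraries and with that block, and Thbs4 and Tmc6 lost it with that block. Over all named genes, 124 values under an alternative were no longer called and 8 newly were, beside 2788 that kept their side. The immobilized count of 793 ran from 146 to 1308 without single libraries (146, 381, 506, 357 and 475 without immobilized Sesn1SkM-Tg replicates 2 and 3 and Sesn2SkM-Tg replicates 1, 3 and 4, and 1308 without Sesn1SkM-Tg replicate 1), and was 1505 without both basal libraries of the highest length index and 1425 with the length covariate. The interaction count of 15 ran from 7 to 231 without single libraries, and was 23 with quantile normalization, 43 without both of those libraries and 106 with the length covariate. The cause of these shifts was not tested. Depth is unknown, so the precision of low values could not be assessed.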

Other observations

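Genes of a pair of enzyme families outside the lists were higher in Sesn1SkM-Tg, and they were singled out after their values were seen. In polyamine synthesis, Amd1, the S-adenosylmethionine decarboxylase, measured 1430.1, 1643, 1506 and 1154 in Sesn1SkM-Tg against 496, 351, 640.4 and 602 in Sesn2SkM-Tg, with WT at 1617, 1541, 969.6 and 625 (log2 fold change 1.48 ± 0.27 SE, adjusted p = 0.0047), and it differed by 1.18 after immobilization. Odc1, the ornithine decarboxylase that begins the pathway, measured 169, 129, 192 and 108 against 40.8, 70.6, 68.9 and 71.1 (1.23, adjusted p = 0.029) and was called in 2 of the 8 fits that leave out a library. Smox, which oxidizes spermine, differed by 0.03 and was not called. The neighbouring genes Scd1 and Scd2, which encode stearoyl-CoA desaturases that make monounsaturated fatty acids, were both higher. Scd1 measured 31.2, 188, 62.5 and 27.8 against 17.6, 9.61, 7.16 and 12.9 (2.24, adjusted p = 0.013), and Scd2 28.2, 31.3, 23.9 and 35.05 against 13.3, 10.9, 13.9 and 12.2 (1.16, adjusted p = 0.0034). Of 11 adipocyte markers 8 had a positive difference and 0 were called, their sum was 225 to 264 in Sesn1SkM-Tg and 210.3 to 335 in Sesn2SkM-Tg, and their part in Scd1 was not tested.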
